A study of Mus musculus with 4 samples.

Results

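Cholesterol synthesis was followed here through 8 genes of the mouse fetal liver, the transcription factor gene Srebf2, its brake Insig1, and the enzyme genes Hmgcs1, Idi1, Fdps, Fdft1, Sqle and Lss. The genes were taken by name from knowledge of the pathway, and every probe that matched a transcript of one of them was used, which gave 11 of the 56605 different probes of the array and 8 of the 22911 genes that could be named. The samples were 4 single-colour Agilent arrays of livers of female fetuses of C57BL/6J dams at 14.5 days post coitum. Of these, 2 came from fetuses of dams given a control diet (CD, labelled as 4.3% fat, 19.2% protein and 67.3% carbohydrate by energy) and 2 from fetuses of dams given a high-fat diet (HFD, labelled as 60% fat, 20% protein and 20% carbohydrate). Dams ate these diets during gestation, and the labels name no genetic change and no further agent in either group. The number of fetuses and dams behind an array is not given in the sources used here, so p-values measure the spread between these arrays only.

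Cells make cholesterol from acetyl-CoA through mevalonate and a series of isoprenoid diphosphates. A pair of farnesyl units is joined to squalene, which is oxidised and closed into the first sterol, lanosterol, and then trimmed to cholesterol. When sterols run low in the endoplasmic reticulum, the Srebf2 protein, SREBP-2, is carried to the Golgi by its escort Scap, cut free, and sent to the nucleus, where it works with NF-Y and Sp1 on the promoters of nearly all enzymes of the route. Insig1 holds the complex back when sterols are plentiful and is itself a target, so the genes of this route are known to move together. The liver is a main site of this synthesis, and a growing fetus needs sterol for new membranes.

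Promoters of 3 of these genes are shown first, searched for letters known from SREBP, NF-Y and Sp1 sites. They are the 250 bases before the transcription start, from RefSeq on build GRCm38.p6, all on the plus strand. The Hmgcs1 promoter spans chr13:119690101-119690350, that of Srebf2 chr15:82147019-82147268 and that of Idi1 chr13:8885356-8885605. Capitals mark matches to the letters searched on both strands, which were TCACNCCAC, CACCCCAC and TCACCCCA for SREBP (overlapping one another), CCAAT for NF-Y (ATTGG on the other strand) and GGGCGG for Sp1 (CCGCCC on the other strand).
Hmgcs1: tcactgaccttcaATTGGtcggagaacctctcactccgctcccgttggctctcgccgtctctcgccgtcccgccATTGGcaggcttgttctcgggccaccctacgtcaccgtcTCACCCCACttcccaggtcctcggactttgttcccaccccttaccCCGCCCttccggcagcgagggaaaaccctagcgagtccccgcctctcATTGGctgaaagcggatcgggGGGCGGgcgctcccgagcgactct
Srebf2: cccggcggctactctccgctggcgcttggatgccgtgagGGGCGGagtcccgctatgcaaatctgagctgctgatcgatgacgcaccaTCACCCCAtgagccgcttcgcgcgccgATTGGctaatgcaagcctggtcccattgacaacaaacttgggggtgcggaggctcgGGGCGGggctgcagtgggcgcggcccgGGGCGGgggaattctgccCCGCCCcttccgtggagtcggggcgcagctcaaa
Idi1: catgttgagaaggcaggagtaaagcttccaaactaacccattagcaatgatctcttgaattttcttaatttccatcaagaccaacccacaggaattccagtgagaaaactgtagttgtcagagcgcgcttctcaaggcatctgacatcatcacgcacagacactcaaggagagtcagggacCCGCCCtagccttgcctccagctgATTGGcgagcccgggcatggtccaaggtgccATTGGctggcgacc

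The Hmgcs1 promoter held all 3 forms of the SREBP letters at a single place, -137 to -129 from the start. The Srebf2 promoter held the form TCACCCCA at -162 to -155, a form that was chosen after these sequences had been seen. Neither the Idi1 promoter nor those of Insig1 and Lss held any of the 3 forms in the window, which says only that these letters are not there. CCAAT and GGGCGG were each present in all 5 promoters found. Over 32851 promoters, each searched over at most 250 bases, TCACNCCAC was present in 1.05%, CACCCCAC in 2.58%, TCACCCCA in 1.34%, CCAAT in 33.9% and GGGCGG in 32.7%. The Lss promoter is given for 210 of its 250 bases. Fdps, Fdft1 and Sqle were not among the promoters used here.

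**Figure D1:**
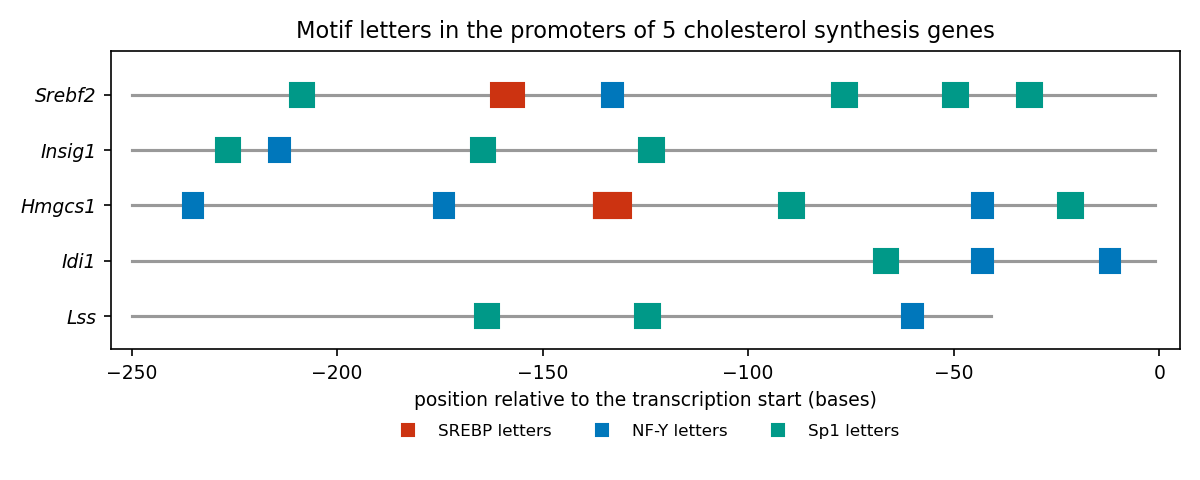
Places of the motif matches in the promoters of 5 of the genes, with the distance from the transcription start in bases on the horizontal axis and a gene per row (grey lines, the bases searched). The Lss row is an exception, with its line and blocks placed too far upstream. Its shorter sequence ends at the start but was placed from the far end of the window, so its distances do not hold. Red blocks stand for the SREBP letters, blue for CCAAT and green for GGGCGG, and red appears in Hmgcs1 and Srebf2 alone among these 5.

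All arrays shared 1 slide and 1 scan, with 59305 non-control spots each. Median intensity ranged from 70.2 (CD replicate 2) to 120.5 (CD replicate 1), between 65.4% and 70.0% of spots were well above background, and no spot was saturated. Levels below are log2 intensities relative to the 75th percentile of the array, so that 0 means a spot as bright as that percentile. After filters on dim and variable probes 41332 probes remained, with all 11 probes of the 8 genes among them, each well above background on all 4 arrays. The intensity of the 11 probes ran from 365 to 56831. Where a gene had several probes, the brightest stands for it. The 8 hepatoblast markers examined (Alb, Afp, Dlk1, Hnf4a, Fgb, Ahsg, Vtn and Prox1) were also well above background on every array.

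No cholesterol synthesis gene differed between the diets past the test. With limma, 0 of the 11 probes had an unadjusted p under 0.05, the smallest being 0.277 for Idi1, while 1383 of all probes tested (3.35%) did and 318 (0.769%) also changed 2-fold or more. After Benjamini-Hochberg adjustment 0 of the 41332 probes (0%) passed, with a smallest adjusted p of 1.00. Unadjusted, the methods' t-test passed 2089 probes and its form with Welch's correction 992, and both passed 0 after adjustment. Over the brightest probes of the 8 genes, the 95% limits of the HFD over CD ratio ran from 0.597 to 1.70, so every interval lay within a 2-fold change in either direction. An exact permutation test of 2 against 2 arrays cannot give a p below 0.333, and a p that misses the threshold does not show that the diets act alike. In whole liver, fewer cells of a type and less RNA per cell cannot be told apart.

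Srebf2 and Insig1, the regulators, were somewhat lower on average under HFD, by less than the gap between the CD arrays. Srebf2 encodes SREBP-2, the activator of the route. Its level was 0.67 and 0.95 on CD replicates 1 and 2, and 0.75 and 0.61 on HFD replicates 1 and 2. The groups overlapped, with CD replicate 2 the highest and HFD replicate 2 the lowest. The log2 fold change, HFD minus CD, was -0.13 ± 0.19 (SE over 2 arrays a group, limma, adjusted p = 1.00). Insig1 encodes the membrane protein that retains the Scap and SREBP complex. It was at -1.23 and -0.93 under CD and at -1.13 and -1.32 under HFD, again with CD replicate 2 on top and overlapping groups. Its log2 fold change was -0.15 ± 0.20 (SE, limma, adjusted p = 1.00). Without CD replicate 2 the differences of Srebf2 and Insig1 were 0.01 and 0.0042, of the opposite sign.

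The genes of the isoprenoid steps, Hmgcs1, Idi1 and Fdps, were slightly higher on average under HFD, with none past the test. Hmgcs1 encodes the cytosolic synthase that forms HMG-CoA, the precursor of mevalonate. Its level was 5.60 and 5.81 under CD and 5.87 and 5.82 under HFD, so both HFD arrays lay above both CD arrays, though HFD replicate 2 was only just above CD replicate 2. The log2 fold change was 0.14 with a 95% interval from -0.32 to 0.60. Idi1 encodes the isomerase that readies isopentenyl diphosphate for chain building. It was at 3.86 and 4.07 under CD and at 4.22 and 4.14 under HFD, with no overlap, and its log2 fold change of 0.22 (95% interval -0.25 to 0.68) was the largest of the 8 in size. Fdps encodes the synthase of farnesyl diphosphate, the branch point towards sterols and prenylated proteins. Its level was 5.39 and 5.87 under CD, while both HFD arrays were at 5.68 and 5.69, between the CD arrays. The log2 fold change was 0.05 with a 95% interval from -0.54 to 0.64. That of Fdps was -0.19 without CD replicate 1 and -0.04 after quantile normalization.

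Among the sterol-forming genes, Fdft1 was lower and Sqle and Lss were higher on average under HFD, each by less than the CD arrays differed. Fdft1 encodes squalene synthase, which joins a pair of farnesyl units. Its level was 4.21 and 4.72 under CD and 4.41 and 4.28 under HFD, so both HFD arrays lay within the CD range, and the log2 fold change was -0.12 (95% interval -0.74 to 0.50). The other Fdft1 probe ran the same way, at 2.40 and 3.08 under CD and 2.56 and 2.46 under HFD, a difference of -0.23. Sqle encodes squalene epoxidase, a step known to limit flux. It was at 4.35 and 4.53 under CD and at 4.51 and 4.49 under HFD, with both HFD arrays inside the CD range and a log2 fold change of 0.06 (95% interval -0.38 to 0.51). Lss encodes the cyclase that makes lanosterol. It was at 3.24 and 3.85 under CD, the widest gap of the 8 genes, and at 3.66 and 3.59 under HFD. Its log2 fold change was 0.08 with a 95% interval from -0.60 to 0.76.

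The 3 probes of Lss disagreed in sign. A dimmer probe gave 1.05 and 2.05 under CD against 1.37 and 1.20 under HFD, a log2 difference of -0.27 whose 95% interval of -1.26 to 0.71 reached past 2-fold. The last probe gave 0.44 and 0.85 under CD against 0.84 and 0.74 under HFD, a difference of 0.15. On all 3 probes both HFD arrays lay between the CD arrays. Without CD replicate 1 the brightest probes gave -0.03 for Sqle and -0.22 for Lss. Without CD replicate 2 they gave 0.14 for Fdft1 and 0.39 for Lss, the latter past an unadjusted threshold of 0.05 but with an adjusted limma p of 0.335. Quantile normalization gave -0.04 for Sqle, and averaging the probes of Lss gave -0.02. The probes' own sequences were not examined here, so signal from near-identical copies of a gene is not separated.

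**Figure D2:**
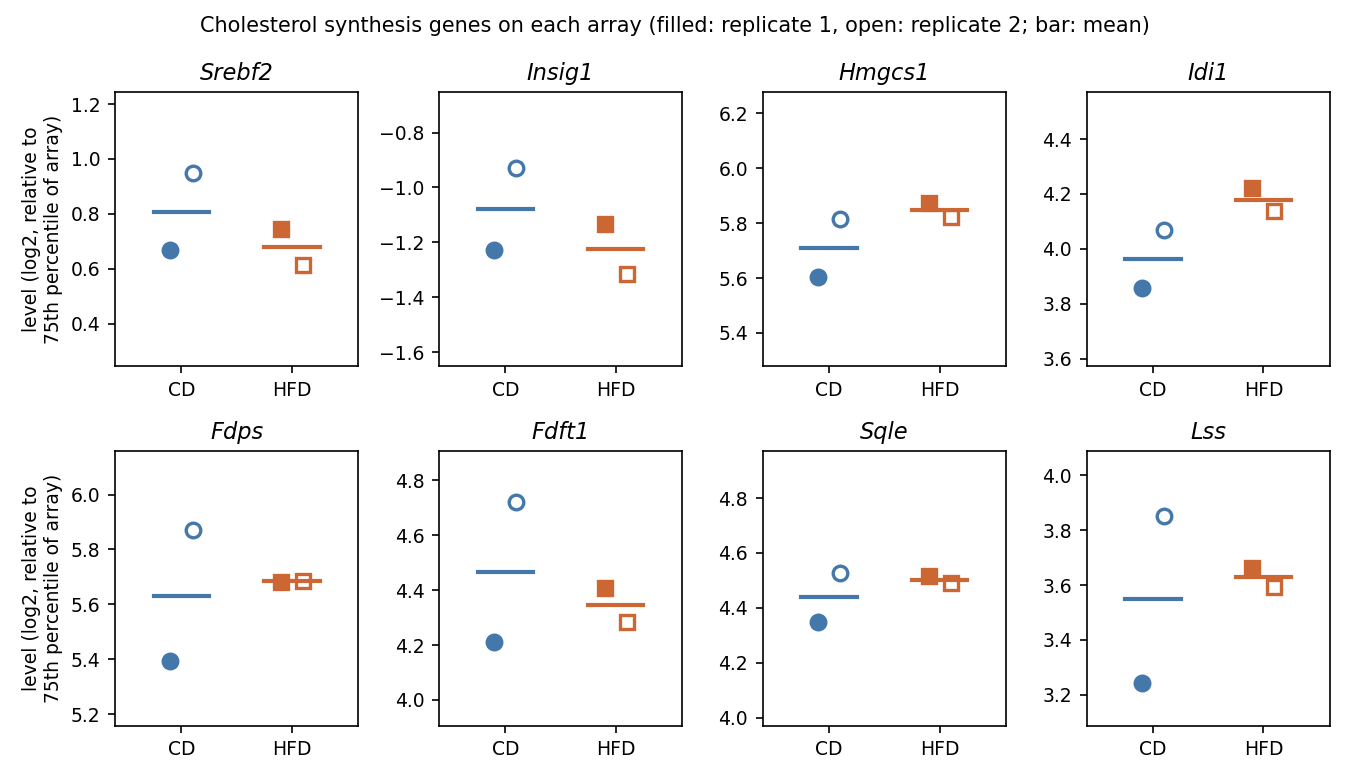
Level of each of the 8 genes on each array (vertical axis, log2 intensity relative to the 75th percentile of the array, the same span in every panel), with CD as blue circles, HFD as orange squares, replicate 1 filled, replicate 2 open and a bar at the mean of 2 arrays. CD replicate 2 lies above CD replicate 1 in all 8 panels, and the HFD arrays lie above both CD arrays in 2, Hmgcs1 and Idi1.

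Counted together, the 8 genes differed between the diets in no common direction. Of these, 5 had a positive and 3 a negative difference, with a median log2 fold change of 0.06 and a range from -0.15 to 0.22. Over all 18205 named genes tested the median was 0.04, and 57.6% were positive. Both HFD arrays lay above both CD arrays for 2 of the 8, against 23% of all named genes, and below them for 0 of the 8, against 10.1%. Both lay between the CD arrays for 4 of the 8 (Fdps, Fdft1, Sqle and Lss), against 39.8% of all named genes. With all 4 arrays the median was -0.04 after quantile normalization, against 0.01 over all named genes. It was -0.20 without CD replicate 1 (all named genes 0.02) and 0.20 without CD replicate 2 (all named genes 0.09), so its sign changed with the scaling and with the CD array used.

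A gap between the CD arrays ran through all 8 genes. CD replicate 2 exceeded CD replicate 1 in all 8 genes and in all 11 probes, whereas 55.5% of all named genes and 52.6% of all probes did. The gap ran from 0.18 for Sqle to 0.61 for Lss, with a median of 0.29 on the log2 scale against 0.06 over all named genes. In 7 of the 8 genes it was wider than the diet difference, Idi1 being the exception. The HFD arrays lay closer together, by a median of -0.08 (replicate 2 minus replicate 1), and their gap was smaller than the CD gap in all 8 genes. Neither of these counts was made over all named genes, so they are not shown to be particular to the 8. HFD replicate 2 was below HFD replicate 1 in 7 of 8 genes, with Fdps the exception, against 57.4% of all named genes. Over all probes the SD of the difference was 0.58 between the CD arrays and 0.34 between the HFD arrays, so the CD arrays differed more than the HFD arrays across the whole array too.

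The CD gap is a difference relative to the array as a whole. CD replicate 2 was the dimmer array, and the 75th percentile of CD replicate 1 was higher than its own by 0.61 on the log2 scale. Before scaling, only 1 of the 8 genes, Lss, was brighter on CD replicate 2, with a median difference of -0.32 for the 8 genes and of -0.54 for all named genes. Scaling by the 75th percentile moves every gene by the same amount, so it changes the sign of the gap and leaves its distance to all named genes as it was. Quantile normalization left 7 of 8 genes higher on CD replicate 2, with a median of 0.25 against 0.02 over all named genes. Normexp background correction gave 8 of 8 and 0.31 against 0.14, and the authors' normalized table gave 8 of 8 and 0.29 against 0.06.

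Set against each CD array in turn, the HFD arrays gave opposite pictures. HFD replicate 1 was above CD replicate 1 in 8 of 8 genes (median 0.23) and above CD replicate 2 in 2 of 8 (median -0.19). HFD replicate 2 was above CD replicate 1 in 6 of 8 (median 0.18) and above CD replicate 2 in 2 of 8 (median -0.22). The 2 genes above CD replicate 2 were Hmgcs1 and Idi1 in both cases. Over all named genes the median for HFD replicate 1 was 0.09 against CD replicate 1 and 0.03 against CD replicate 2. For HFD replicate 2 these medians were 0.08 and 0.02.

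Further genes of the pathway, listed from general knowledge in 5 groups of 44 genes in all, likewise held none that passed the test. Of the 43 with a probe, all 43 passed the filters. At an unadjusted limma p under 0.05, 0 rose and 0 fell, against 1.38% and 1.46% of all named genes. With shares that small, few of 43 genes would pass in any list. The median log2 fold change was 0.10, with 33 positive and 10 negative, against 0.04 and 57.6% positive over all named genes. CD replicate 2 was above CD replicate 1 in 36 of 43 by a median of 0.20, against 55.5% and 0.06. Both HFD arrays lay above both CD arrays in 11 of 43, near the 23% of all named genes, and below them in 1 of 43, against 10.1%.

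The early mevalonate enzymes Mvk, Pmvk and Mvd phosphorylate and decarboxylate mevalonate, and Acat2, which starts the route, had no probe matched. The 3 genes had a median difference of 0.10, with 2 positive and 1 negative. Mvk was at 3.83 on both CD arrays and at 4.07 and 4.05 on the HFD arrays, a difference of 0.23 with a 95% interval from -0.18 to 0.65. It was the 1 gene of the 3 whose groups did not overlap, against 33.2% of all named genes. Its CD arrays differed by 0.0015. Pmvk was at 4.09 and 4.35 under CD and at 4.35 and 4.29 under HFD, and Mvd had a difference of -0.08. In both the groups overlapped.

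The 10 enzymes after lanosterol, which remove methyl groups and shift or reduce double bonds, had a median of 0.11 and a range from -0.13 to 0.21, with 7 positive and 3 negative. The 3 with the highest level were Lbr, a nuclear membrane protein with sterol reductase activity, Msmo1, a methyl sterol oxidase, and Ebp, a sterol isomerase. Lbr was at 5.93 and 6.32 under CD and at 6.29 and 6.26 under HFD. Msmo1 was at 4.80 and 5.09 under CD and at 5.12 and 5.04 under HFD. Ebp was at 4.73 on CD replicate 1 and at 4.99 and 4.97 on the HFD arrays, with CD replicate 2 just above these. In each of the 3, CD replicate 1 was the low array and the other 3 arrays lay close together. CD replicate 2 was above CD replicate 1 in 9 of the 10 enzymes, by a median of 0.27, against 55.5% and 0.06 over all named genes.

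The 11 genes of sterol sensing and SREBP processing had a median of 0.09, with 9 positive and 2 negative. Both HFD arrays lay above both CD arrays in 2 of the 11, against 23% of all named genes. They lay below both CD arrays in 1, against 10.1%. Mbtps1, the protease that makes the first cut in SREBP, was at 4.52 and 4.36 under CD and at 4.52 and 4.44 under HFD, inside the CD range. Srebf1, which encodes the related factor SREBP-1 of fatty acid synthesis, was at 4.36 and 4.54 under CD and at 4.35 and 4.28 under HFD. It was the 1 pathway gene of the 43 with both HFD arrays below both CD arrays, and its difference of -0.14 had a 95% interval from -0.59 to 0.32.

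The 13 genes of sterol transport, storage and efflux had a median of 0.13, with 10 positive and 3 negative. Both HFD arrays lay above both CD arrays in 4 of the 13, against 23% of all named genes. Npc2, a lysosomal sterol carrier, was at 3.46 and 3.66 under CD and at 3.56 and 3.43 under HFD. Soat2, which esterifies cholesterol, was at 2.78 and 3.43 under CD and at 3.36 and 3.24 under HFD. Scarb1, the HDL receptor, was at 2.95 and 3.22 under CD and at 3.17 and 3.44 under HFD. All 3 overlapped between the diets. The 6 enzymes of the non-sterol branch, which make ubiquinone, dolichol and geranylgeranyl chains, had a median of 0.07. Coq2 of ubiquinone synthesis gave 0.16, Ggps1 of geranylgeranyl synthesis 0.11 and Dhdds of dolichol synthesis 0.02, none past the test.

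**Figure D3:**
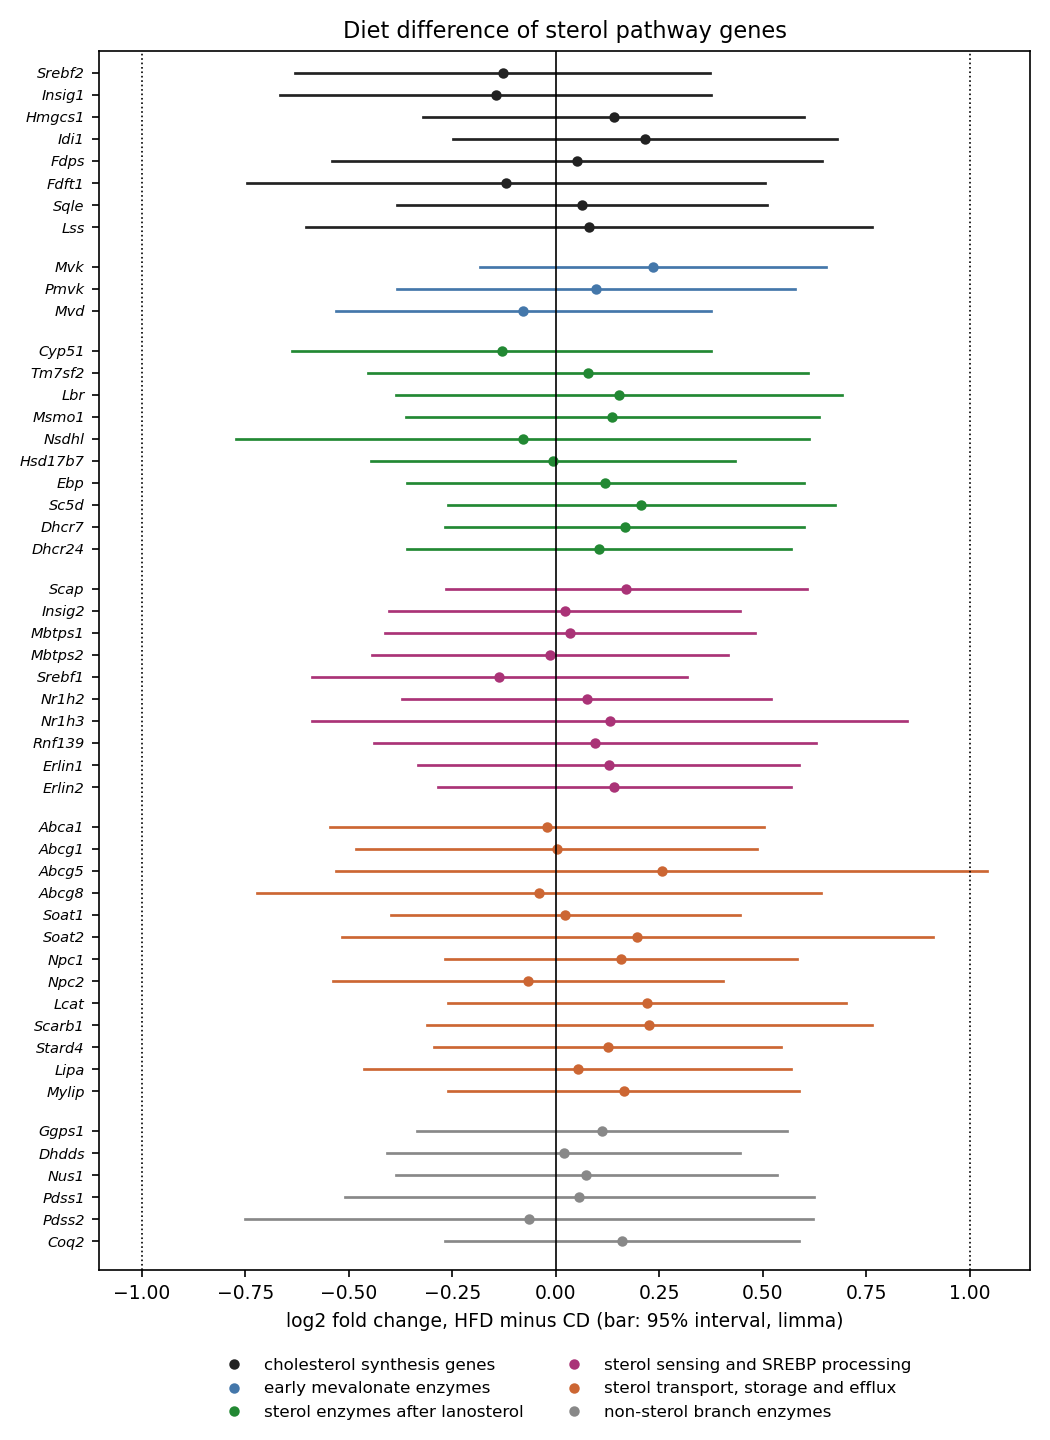
Log2 fold change, HFD minus CD, of the 8 cholesterol synthesis genes and 42 further pathway genes (points, coloured by group), with 95% limma intervals as bars and dotted lines at a 2-fold change. All intervals drawn cross 0, and of these only that of Abcg5 reaches a dotted line.

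Markers of the cell types of fetal liver moved with the CD gap of the cholesterol synthesis genes. CD replicate 2 exceeded CD replicate 1 for all 8 hepatoblast markers, with a median gap of 0.63, and their summed linear level was 1141 and 1797 under CD and 1392 and 1400 under HFD. It did so for all 8 erythroid markers too, with a median gap of 0.46, with sums of 395 and 460 under CD and 486 and 523 under HFD. In the median over the hepatoblast list, as in that over the 8 genes, CD replicate 1 was the lowest array and CD replicate 2 the highest. The HFD arrays lay between in both medians. Taken singly, only 4 of the 8 genes had this order, against 39.8% of all named genes. The median diet difference of the hepatoblast list was -0.03. The part of liver cell content in the CD gap was not tested.

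Markers of tissues outside the liver also differed between the arrays. The summed level of the 7 trophoblast markers on the array was 61.3 and 60.9 under CD and 46.0 and 49.2 under HFD, but these sums were mostly Gcm1, which alone gave 50.2 and 19.4 under CD and 43.3 and 48.4 under HFD. The other 6, set apart after the values were seen, summed to 11.1 and 41.5 under CD and 2.71 and 0.805 under HFD. In each of these 6 both HFD arrays lay below both CD arrays, against 10.1% of all named genes tested. CD replicate 2 lay above CD replicate 1 in each, against 55.5%. Tpbpa, Prl8a8, Prl3b1 and Ceacam14 among them did not pass the filters and were not tested. Over all 7 the median log2 difference was -3.80 between the diets and 1.83 between the CD arrays. The 6 neuron markers summed to 21.5 and 15.4 under CD and 11.1 and 14.9 under HFD, and CD replicate 2 was above CD replicate 1 in 1 of 6. The 7 adrenal and gonad steroidogenic markers summed to 22.7 and 19.0 under CD and 25.3 and 39.7 under HFD. At an unadjusted limma threshold of 0.05, 2 of the 6 steroidogenic markers that passed the filters were higher under HFD, against 1.38% of all named genes. Lower under HFD were 3 of 6 neuron markers and 1 of 3 trophoblast markers (Psg17, log2 fold change -3.05), against 1.46% of all named genes. After adjustment 0 of these passed. No list was at 0, since 5 of 7 trophoblast markers, all 6 neuron markers and all 7 steroidogenic markers were well above background on all 4 arrays. Their part in the levels of the cholesterol synthesis genes was not tested.

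**Figure D4:**
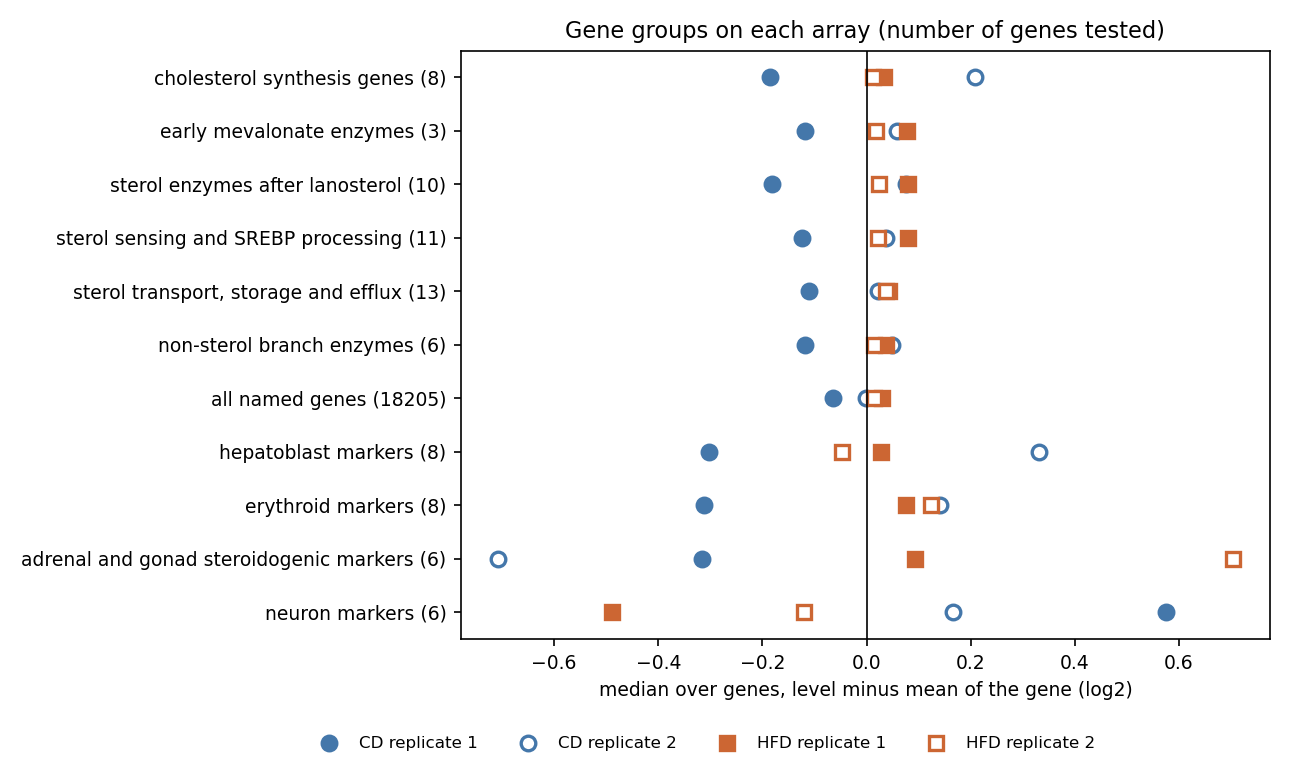
Median over the genes of each list drawn of the level on an array minus the mean of the gene over the 4 arrays (horizontal axis, log2). The number of genes tested is in brackets, with CD as blue circles and HFD as orange squares. The trophoblast markers are not drawn. The 8 cholesterol synthesis genes run from -0.19 on CD replicate 1 to 0.21 on CD replicate 2 with HFD at 0.03 and 0.01, and the hepatoblast markers from -0.30 to 0.33.

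The mean profile of the 8 genes, each centred on its own mean, took the values -0.18 and 0.16 under CD and 0.05 and -0.03 under HFD. Over 16522 named genes well above background on all 4 arrays, those other than the 8 with the smallest Euclidean distance to it on the log2 scale were Rufy1 (0.0092), Cd2bp2 (0.011), Amz1 (0.014), Cactin (0.015) and Mrps9 (0.016). The 8 genes themselves were farther from their own mean, from 0.115 for Fdps, with 1350 other genes closer, to 0.219 for Idi1, with 4685 other genes closer.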

How the data were processed

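Female fetal livers were profiled on 4 arrays (2 CD, 2 HFD). Groups and replicate numbers came from the labels, and age from the study's text. The authors hybridised Cy3-labeled cRNA and read the image with Agilent Feature Extraction 11.0.1.1, per the labels. They deposited for each spot a background-subtracted intensity that was not scaled between arrays, the median signal of the spot and of its local background, and flags, each a score of 0 or 1, that mark outlier spots, saturated spots and spots well above background. A normalized table of 41471 probes was deposited as well, in which the signal equals the intensity divided by 1 constant per array (1068 and 702 for CD, 967 and 906 for HFD) within 0.1% for 100% of the probes compared.

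The log2 of the intensity was taken, spots of a probe were averaged without those with an outlier flag (39 to 58 per array), and the 75th percentile of each array was subtracted. Of 56605 probes, 56596 had an unflagged spot on every array. Left out were 14980 under the 20th percentile on any array and 284 with a linear CV over 50% in both groups. The diet comparison used lmFit and eBayes of limma 3.58.1 (R 4.3.3) with no covariates, with Benjamini-Hochberg adjustment over the 41332 probes tested. Steps were tested on simulated data. Transcripts were matched to RefSeq genes of GRCm38.p6, which named 32994 probes. Probe coordinates are left out because the design of the array used a different build. Tables and plots were made in Python 3.11.15 with pandas 2.3.3, numpy 2.4.6 and matplotlib 3.10.9.

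The genes named are the 8 members, the 3 of highest mean level in each pathway list and any at an unadjusted p under 0.05, the 5 nearest profiles, and the markers. Another gene that this rule names is not reported here or drawn. Abcg5 and the count of genes above CD replicate 2 were picked after their values were seen. Members and lists were chosen with earlier results of these data known. Alternatives were quantile normalization, normexp with an offset of 50 (on the median signal), the deposited table, other filters, the mean over probes, a block for the replicate number, the methods' t-test (also in Welch's form), and leaving out each array. The number of arrays limits the precision.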

Additional observations from a re-analysis of the deposited data

How the results depend on the processing

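No difference of the 8 genes passed an adjusted test under any alternative run, the lowest adjusted limma p being 0.249 for Fdft1. Among all probes, those past both cutoffs numbered 318, against 31 with normexp, 845 with no filter on dim probes, 97 with the methods' t-test, 46 with Welch's correction, and 654 to 1226 with an array left out. Quantile normalization gave -0.038 for Fdps, -0.039 for Sqle, a median of -0.038 for the 8 genes and a median of -0.0062 for the early mevalonate enzymes, and averaging probes gave -0.015 for Lss and a median of 0.044 for the transport group. With each array left out, differences ran from -0.27 to 0.013 for Srebf2, from -0.29 to 0.0042 for Insig1, from 0.034 to 0.24 for Hmgcs1, from 0.11 to 0.32 for Idi1, from -0.19 to 0.29 for Fdps, from -0.38 to 0.14 for Fdft1, from -0.026 to 0.15 for Sqle and from -0.22 to 0.39 for Lss. The lower end was without CD replicate 1 and the upper without CD replicate 2 in each, and only the upper value of Lss passed an unadjusted threshold of 0.05. Where an array is left out, the lone array of its group is assumed to vary like the other group. Medians with an array left out ran from -0.20 to 0.20 for the 8 genes, from -0.035 to 0.23 for the early mevalonate enzymes, from -0.027 to 0.22 for the enzymes after lanosterol, from -0.012 to 0.16 for sterol sensing, from 0.015 to 0.17 for transport and from -0.026 to 0.18 for the non-sterol branch. The count of the 8 genes whose groups did not overlap was 2, and 2 to 8 with an array left out (8 without CD replicate 1, 6 without CD replicate 2, 4 without HFD replicate 1, 2 without HFD replicate 2). Over all named genes the share that did not overlap was 33.2%, and 83.8%, 84.7%, 49.3% and 48.6% with those arrays left out in that order. The cause was not tested, beyond there being fewer arrays or other probes. Same-numbered arrays did not deviate together (r = -0.10 over probes), but 2 pairs cannot show whether the replicate numbers pair the samples. The fit with the replicate number as a block changed no call of the 8 genes (435 probes past both cutoffs). Apart from the changes of sign above and the Lss value, 102 values of single genes kept their sign and their side of the threshold. Of 75 summary values, which moved by less than the spread between replicates or, for counts, stayed within 1.5 times, 74 kept their sign, the exception being the quantile median of the 8 genes.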
